A study of Sus scrofa with 80 samples.

Results

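The comparison described here set blood expression in pigs with a high combined value for the cytokine IFN-alpha and body weight against that in pigs with a low one. It used the 10 arrays whose titles place them in the high or low self-product group of IFN-alpha with W35, 5 per group, out of 80 arrays in the series. W35 is weight at 35 days of age, the age at which all piglets were weighed. IFN-alpha had been measured with an immunological kit. Pigs were ranked on the self-product of the traits, and 5 were taken from each end of that ranking. The self-product's formula is not given in the sources used here, so a high group cannot be read as pigs that were high in IFN-alpha, heavy, or both. The animals in both groups were weaned pigs, bled from the anterior vena cava, with no treatment named. Their sex and breed are not given in the sources used here, and each array holds the RNA of 1 pig. Values are log2 expression per probe set on a porcine Affymetrix array, and every difference is high minus low.

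IFN-alpha belongs to the type I interferons, antiviral cytokines that plasmacytoid dendritic cells release in large amounts when they sense viral nucleic acid. All type I interferons bind a receptor of the chains IFNAR1 and IFNAR2. The kinases TYK2 and JAK1, and transcription factors that include STAT2 and IRF9, then carry the signal to interferon-stimulated genes. Whole blood RNA mixes transcripts of white cells, young red cells and platelets. A lower level in such a bulk sample can come from fewer cells of a type or from less RNA per cell, and these cannot be told apart.

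The arrays were alike in level, with array medians from 5.73 to 5.78 and correlations between arrays of 0.946 to 0.986. Blood markers were well measured: ALAS2 of young red cells averaged 12.33, PPBP of platelets 10.85, CD3E of T cells 9.51 and CD79B of B cells 9.47. The hybridisation controls bioB and bioC split the arrays into classes that crossed the groups. Their difference lay between -1.25 and -1.13 in 3 low and 2 high arrays (the higher spike-in class) and between -3.98 and -3.27 in 2 low and 3 high arrays (the lower class). EIF1AY, which is carried on the Y chromosome, was at 7.47 or more in 2 of 5 low and 4 of 5 high arrays and at 3.23 or less in the rest. The groups were therefore not balanced for this Y-linked signal, which is partly confounded with the group difference. Fits with EIF1AY as a covariate are given further below. Levels of erythroid and neutrophil genes ranged more widely among the low pigs. Array means of the 12 erythroid genes measured ran from 7.01 to 9.36 in the low and from 8.04 to 8.86 in the high group, and those of the 11 neutrophil genes from 7.44 to 9.01 and from 7.80 to 8.13. The B cell list ranged more widely among the high pigs, from 8.89 to 9.715, against 8.84 to 9.25 in the low group. Low replicate 1 had both the lowest erythroid and the highest neutrophil mean. By correlation of their arrays, 7 of the 10 pigs also served in another trait pair, 4 of them under the opposite label.

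No probe set differed past the threshold between the groups. In limma, the linear model for arrays, 0 of 23999 probe sets had a Benjamini-Hochberg adjusted p under 0.05 (background 0%), and the smallest adjusted p was 0.999. At an unadjusted p under 0.05 there were 1018 probe sets (4.24%), of which 529 were higher in the high group (2.2%) and 489 lower (2.04%). The 5 high and 5 low values did not overlap for 153 probe sets (0.638%), 74 with the high group above (0.308%) and 79 with it below (0.329%). Reduced to 1 probe set per gene, 324 of 6765 genes reached that level (4.79%), 160 of them higher (2.37%) and 164 lower (2.42%), and 48 did not overlap (0.71%), 25 higher (0.37%) and 23 lower (0.34%). The difference was above 0 in 47.6% and below 0 in 52.4% of genes, and also of probe sets, with a median over genes of -0.01. Every gene below had an adjusted p of 0.999 in limma, so its values describe these 10 pigs and stand for no change that passed a test. Nothing says that blood was sampled more than once per pig, so the errors cover the spread between pigs together with that of the assay.

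**Figure D1:**
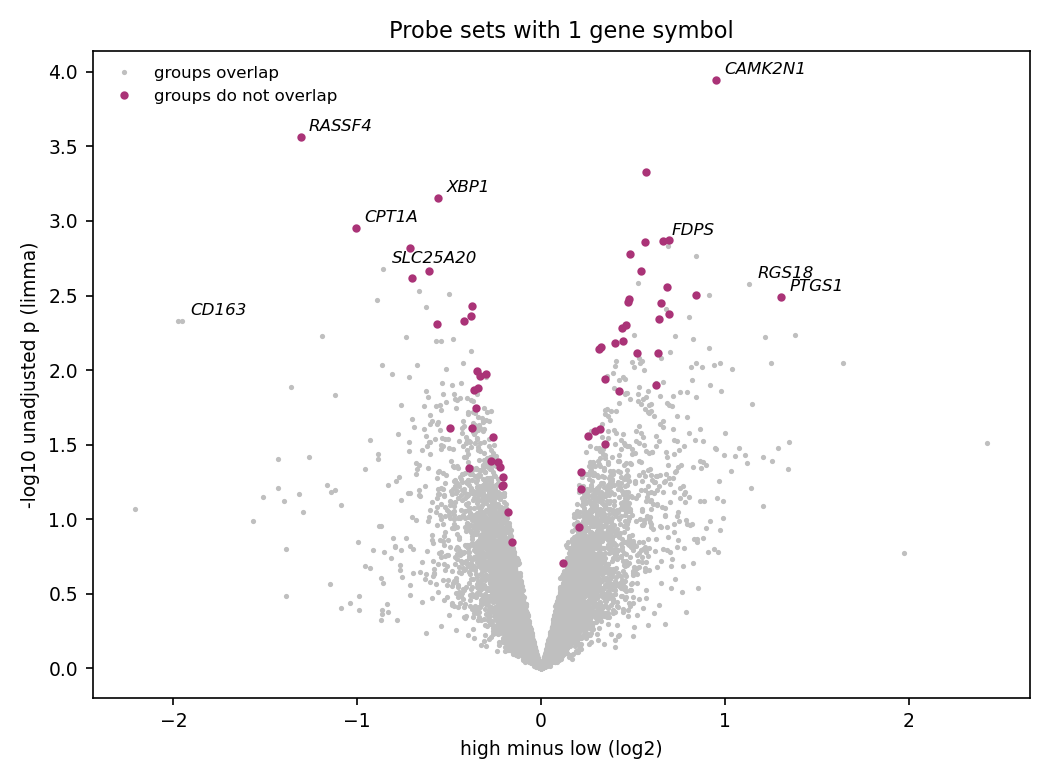
Difference between groups (x axis, high minus low, log2) against the unadjusted limma p (y axis, -log10) for 10069 probe sets with 1 gene symbol, with purple points for probe sets without overlap between the groups. CAMK2N1 at 0.95 and RASSF4 at -1.31 stand at the top, and no point passed an adjusted p of 0.05.

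The receptor chains for IFN-alpha were measured lower in the high group, while the ligand genes hardly differed. IFNAR1 measured 8.97, 8.08, 9.28, 8.97 and 8.74 in the low arrays and 8.30, 7.84, 8.46, 7.82 and 8.98 in the high arrays. The groups overlapped: low replicate 2 lay below 3 high arrays, and high replicate 5 above every low array but replicate 3. The means were 8.81 ± 0.45 and 8.28 ± 0.48 (SD, n = 5 each), a difference of -0.53 (SE 0.26). For IFNAR2, the chain that binds IFN-alpha most tightly, the low arrays gave 8.40, 8.18, 8.71, 8.34 and 8.81 and the high arrays 8.37, 7.95, 7.84, 7.74 and 8.42. Here 3 high arrays lay below all low arrays and the other two within their range. The difference was -0.42 (SE 0.17), but a second probe set of IFNAR2 differed by only 0.02 (SE 0.25). Within the higher and lower spike-in classes IFNAR1 differed by -0.69 and -0.20, and IFNAR2 by -0.38 and -0.46.

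IFNA1, which encodes an IFN-alpha, averaged 6.48 ± 0.16 over the low and 6.44 ± 0.11 over the high arrays (SD, n = 5 each). Its high arrays, from 6.31 to 6.60, lay inside the range of the low arrays, from 6.22 to 6.60. IFNB1, the interferon beta gene, was dim, with group means of 3.43 ± 0.35 and 3.40 ± 0.17. Of the 6 genes listed as ligands and receptors 4 were measured, and all 4 were lower, with a median difference of -0.23. Only 1 (IFNAR2) had an unadjusted p under 0.05, as did 4.79% of all genes.

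Among the signal carriers behind the receptor, 10 of 15 measured genes were higher, with a median of 0.05 and none at an unadjusted p under 0.05. TYK2, the kinase bound to IFNAR1, measured 10.84, 9.88, 10.39, 10.69 and 11.01 in the low arrays and 10.63, 11.46, 11.43, 10.62 and 11.0 in the high arrays. Only 2 high arrays lay above all low arrays, and the difference was 0.47 (SE 0.24). IRF1, a transcription factor induced by interferons, averaged 11.78 ± 0.93 and 12.54 ± 0.34, a difference of 0.76 (SE 0.38). Its high arrays stood close together, and low replicates 2 (10.32), 4 (11.40) and, only just, 3 (12.25) lay below all of them. SOCS3, a feedback inhibitor of cytokine receptors, differed by 0.28 (SE 0.19) and IRF8, a factor of monocytes and dendritic cells, by 0.35 (SE 0.35). JAK1 (-0.10), STAT2 (-0.08), IRF9 (0.14), IRF3 (0.00) and USP18 (0.01) differed by less than their SE.

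The sensors of viral nucleic acid were higher in 7 of 8 cases, with a median of 0.12 and none at an unadjusted p under 0.05. IRAK1, a kinase below the Toll-like receptors, differed by 0.30 (SE 0.15) and the adaptor MAVS by 0.15 (SE 0.15). TLR8 and TLR9, endosomal receptors for single-stranded RNA and for DNA, differed by 0.26 (SE 0.33) and 0.10 (SE 0.13).

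Interferon-stimulated genes did not lean to either group: 9 of 18 measured genes were higher and 9 lower, with a median of -0.02. DDX60, a helicase of antiviral sensing, measured 6.12, 5.04, 4.93, 5.75 and 6.97 in the low arrays and 4.80, 5.21, 5.16, 5.16 and 4.06 in the high arrays. Only 2 high arrays lay below all low arrays, and 3 low arrays lay above all high arrays. By the probe set kept per gene, the difference of -0.89 (SE 0.37) was the only 1 of the 18 with an unadjusted p under 0.05. Of all genes 4.79% were at that level. XAF1, an interferon-induced gene of cell death, differed by -0.70 (SE 0.39), while IFIT3 and IFIT2, antiviral proteins that act on foreign RNA, differed by 0.55 (SE 0.38) and 0.50 (SE 0.40). Dimmer other probe sets of IFIT2 differed by 1.03 (SE 0.46), with an unadjusted p under 0.05, and by 0.75 (SE 0.47). The genes of this list varied among pigs far more than between the groups. The array means of the list ran from 9.06 to 11.11 in the low group and from 8.85 to 10.68 in the high group. Low replicates 1 and 5 were the highest low arrays (10.78 and 11.11), high replicates 2 and 3 the highest high ones (10.49 and 10.68), and high replicate 5 the lowest of all. The median was 0.25 within the higher spike-in class (14 of 18 higher) and -0.31 within the lower (6 of 18 higher).

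**Figure D2:**
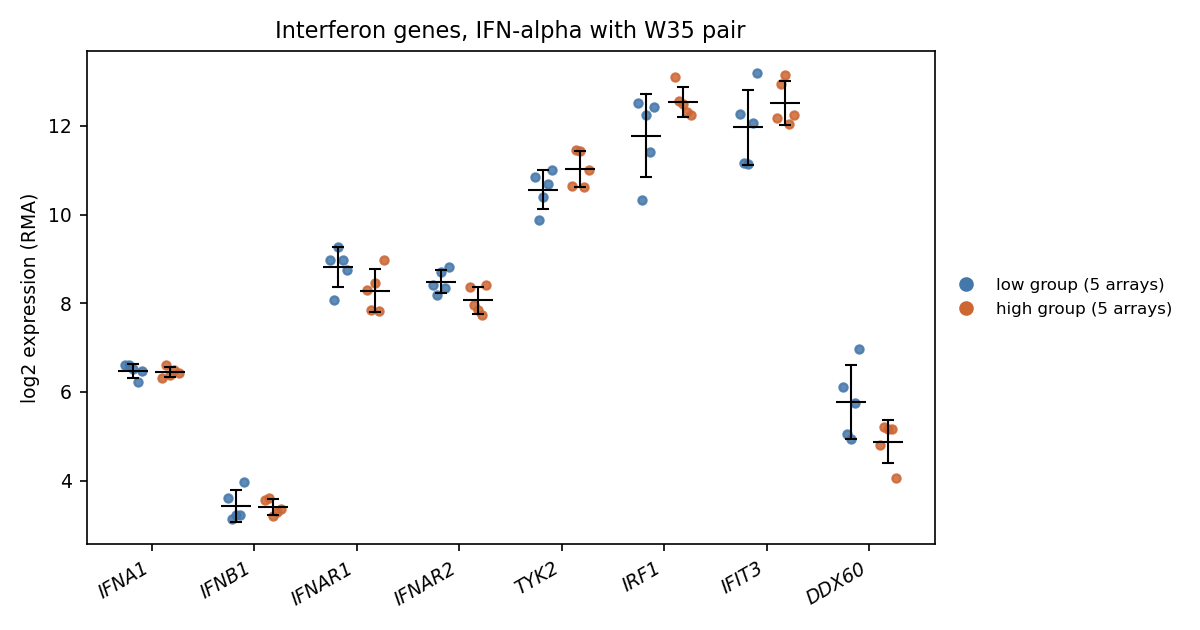
Log2 expression (y axis) of 8 interferon genes (x axis) in the 5 low (blue) and 5 high (orange) arrays, with bars for the group mean and SD. The groups overlapped for every gene shown; IFNAR1 averaged 8.81 in the low and 8.28 in the high group, and IFNA1 6.48 and 6.44.

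Plasmacytoid dendritic cells, the main source of IFN-alpha, were marked by 7 measured genes, 5 of them higher (median 0.10). The 2 with an unadjusted p under 0.05 (4.79% of all genes), TCF4 and SPIB, lay in opposite directions. TCF4, the factor that sets their identity, differed by 0.55 (SE 0.17), with 4 of 5 high arrays above all low arrays, but at a dim level of 3.96 ± 0.37 against 4.51 ± 0.16. SPIB, a factor of plasmacytoid dendritic cells and B cells, differed by -0.62 (SE 0.25). PACSIN1, an adaptor of endocytosis found in these cells, differed by 0.45 (SE 0.21).

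Weight is the other trait of the ranking, and growth is driven by growth hormone through its receptor, JAK2 and STAT5B, and by the insulin-like growth factors. Of 23 measured genes of this axis 9 were higher and 14 lower (median -0.05), and 1 had an unadjusted p under 0.05 (4.79% of all genes did). That gene was IGF2R, the receptor that clears IGF2 and carries lysosomal enzymes, at 7.15, 6.79, 6.84, 6.60 and 6.87 in the low arrays and 7.31, 7.32, 6.86, 7.13 and 7.29 in the high arrays. Here 3 high arrays lay above all low arrays, and the difference was 0.33 (SE 0.13). The receptor gene GHR itself differed by -0.08 (SE 0.13), JAK2 by 0.02 (SE 0.25) and STAT5B by 0.18 (SE 0.20). Dimmer second probe sets of JAK2 and STAT5B differed by 0.44 (SE 0.30) and 0.33 (SE 0.28). IGF1R, the receptor of IGF1, differed by -0.19 (SE 0.11) and IGF1 by -0.13 (SE 0.14). IGFALS, which stabilises IGF1 in serum, differed by -0.21 (SE 0.10), THRB, a thyroid hormone receptor, by -0.25 (SE 0.14), and GRB10, an inhibitor of insulin and IGF receptors, by 0.31 (SE 0.18). Dimmer second probe sets of IGFALS (0.01, SE 0.15), THRB (0.02, SE 0.14) and GRB10 (-0.02, SE 0.11) hardly differed. The same held for other probe sets of IGF1R (-0.04) and IGF1 (-0.03 and 0.04). The liver makes most circulating IGF1 and IGFALS, so blood RNA shows only what blood cells transcribe.

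Platelet and megakaryocyte genes leaned towards the high group. Platelets are cell fragments that megakaryocytes shed and that carry RNA from them. Of 19 measured genes 17 were higher, with a median difference of 0.40 against -0.01 for all genes. By the probe set kept per gene, 6 of the 19 were at an unadjusted p under 0.05, all higher, where 2.37% of all genes were. The 6 were PTGS1, RGS18, MYL9, PPBP, P2RY12 and ITGB3.

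PTGS1, the cyclooxygenase with which platelets make thromboxane, measured 6.72, 5.27, 5.88, 7.07 and 5.40 in the low arrays and 7.09, 7.13, 8.05, 7.10 and 7.49 in the high arrays. The groups did not overlap, but low replicate 4 at 7.07 came within 0.026 of the dimmest high array. The means differed by 1.30 (SE 0.35), or 2.47-fold, while a second, dimmer probe set of PTGS1 did not differ (0.00, SE 0.11). RGS18, a brake on G protein signals abundant in platelets, gave 9.82, 9.27, 10.63, 9.42 and 9.05 in the low arrays and 10.90, 10.45, 11.36, 10.30 and 10.85 in the high arrays. Apart from low replicate 3, every low array lay below all high arrays, and the difference was 1.13 (SE 0.29), or 2.19-fold. MYL9, a myosin light chain, measured 9.21, 9.73, 10.61, 10.13 and 9.23 against 10.93, 10.40, 10.80, 10.20 and 10.80. Again low replicate 3 was the only low array inside the high range, and the difference was 0.85 (SE 0.27).

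PPBP, the platelet basic chemokine, measured 10.48, 10.58, 11.06, 10.60 and 9.87 in the low arrays and 11.0, 10.76, 11.95, 11.15 and 11.05 in the high arrays. Low replicate 3 was again the highest low array, and low replicate 5 the lowest. The difference was 0.66 (SE 0.25). P2RY12, the receptor for ADP that clopidogrel blocks, gave 6.10, 6.64, 8.44, 8.13 and 7.0 against 8.20, 8.55, 7.97, 8.07 and 8.28. Its high arrays stood close together (SD 0.22) beside a spread of 0.99 in the low group, and the difference was 0.95 (SE 0.39). ITGB3, a chain of the fibrinogen receptor, averaged 10.71 ± 0.77 and 11.45 ± 0.35, a difference of 0.74 (SE 0.33).

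The other 13 genes had wide overlap. ITGA2B, the partner chain of ITGB3, differed by 0.57 (SE 0.44), SELP, the adhesion molecule P-selectin, by 0.59 (SE 0.45) and ESAM, an adhesion molecule of platelets and vessels, by 0.56 (SE 0.31). Other probe sets of ESAM differed by -0.29 (SE 0.16), at nearly the same brightness, and by 0.36 (SE 0.39). TLN1 (0.40), GNG11 (0.39), RGS10 (0.37), THBS1 (0.22), GP9 (0.22), VWF (0.11), F2RL2 (0.05) and SPARC (0.03) were measured higher, with SE between 0.12 for F2RL2 and 0.48 for VWF. A dimmer second probe set of TLN1 differed by 0.79 (SE 0.29), with an unadjusted p under 0.05. Dimmer other probe sets differed by -0.31 (SE 0.23) for SPARC, by -0.14 (SE 0.14) and 0.03 (SE 0.13) for VWF, and by 0.01 to 0.44 for THBS1. TBXAS1, which makes thromboxane from the product of PTGS1, differed by -0.02 (SE 0.40), and F2R, a thrombin receptor, by -0.53 (SE 0.34).

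As a group the low arrays spread more widely. The mean of the 19 genes was 8.44, 8.47, 9.32, 8.84 and 8.04 in the low arrays and 9.03, 8.84, 9.42, 9.02 and 9.06 in the high arrays. Only high replicate 3 lay above all low arrays, and low replicate 3 was the second highest of the 10. Without low replicate 5 the median difference was 0.25, with 16 of 19 higher. Without low replicate 3 it was 0.59, with 18 of 19 higher. It was 0.53 (15 of 19 higher) within the higher spike-in class and 0.75 (17 of 19 higher) within the lower. With the erythroid and neutrophil list means in the model the median was 0.34, and with EIF1AY in it 0.38.

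**Figure D3:**
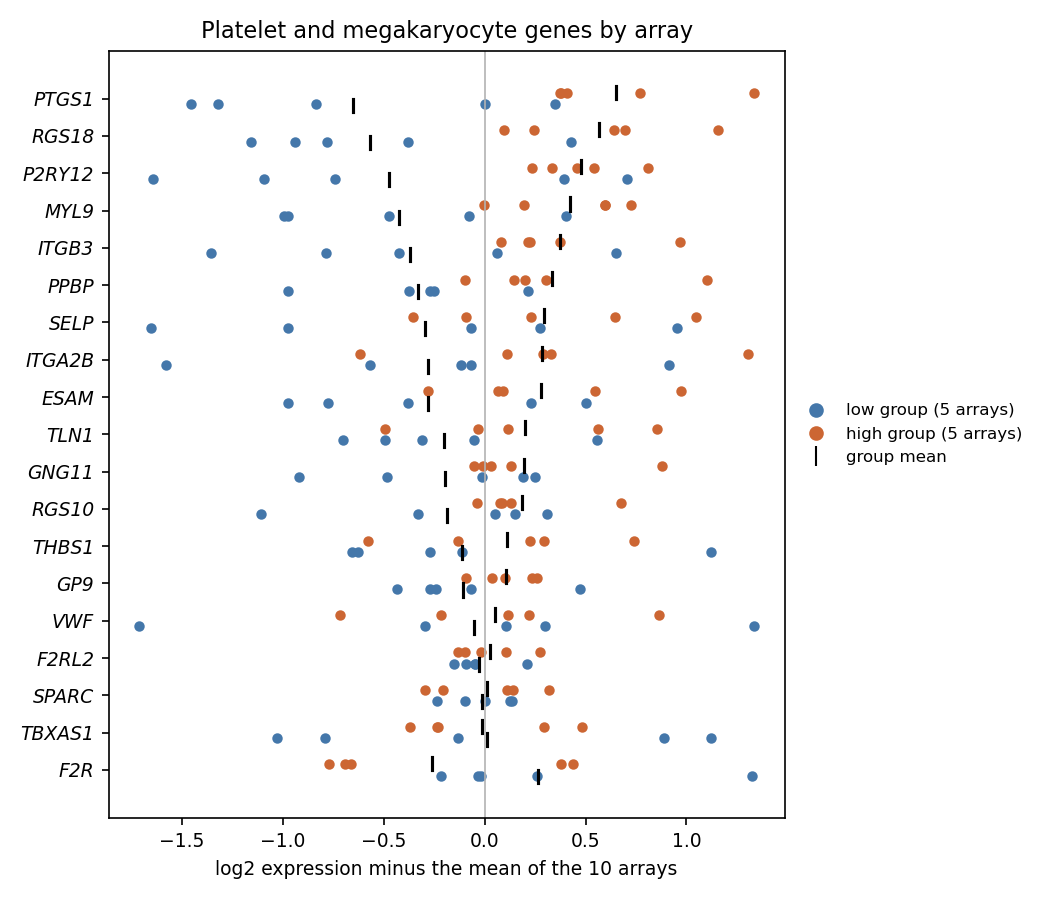
Log2 expression of 19 platelet and megakaryocyte genes (rows) in each array, minus the gene's mean over the 10 arrays (x axis), with low arrays in blue, high arrays in orange and black ticks for group means. The mean tick of the high group lies to the right for 17 genes, up to PTGS1 at the top, and the low arrays spread more widely than the high ones for most of the upper rows.

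Both genes of the carnitine shuttle named by the rule were measured lower in the high group, while most sterol synthesis genes were measured higher. Fatty acids enter mitochondria through the carnitine shuttle, in which CPT1A attaches carnitine and SLC25A20 carries the product across the inner membrane. CPT1A measured 8.99, 9.61, 8.77, 10.13 and 9.78 in the low arrays and 8.42, 8.51, 8.29, 8.55 and 8.48 in the high arrays. The groups did not overlap, and the high arrays were much tighter (8.45 ± 0.10 against 9.45 ± 0.56; SD, n = 5 each). The difference was -1.0 (SE 0.23), a level 2.01-fold higher in the low group. SLC25A20 gave 7.25, 7.68, 6.69, 7.55 and 7.77 in the low arrays and 6.09, 6.92, 6.47, 6.61 and 6.55 in the high arrays. Apart from high replicate 2, every high array lay below all low arrays, and the difference was -0.86 (SE 0.22).

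Both shuttle genes were low in the same pig of the low group: replicate 3, the lowest low array for both. Leaving out each array in turn kept CPT1A between -1.18 and -0.84 and SLC25A20 between -1.03 and -0.75. PNPLA2, the lipase that opens fat stores, measured 9.69, 9.56, 9.77, 9.88 and 9.26 against 9.34, 8.99, 9.15, 8.98 and 9.20. Low replicate 5 alone lay within the high range, the difference was -0.50 (SE 0.13), and a dimmer second probe set differed by -0.04 (SE 0.13).

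The rest of the oxidation pathway did not follow the shuttle. Of 28 measured genes 14 were higher and 14 lower, with a median of 0.00. At an unadjusted p under 0.05 (4.79% of all genes) were CPT1A, SLC25A20 and, in the other direction, ACSL4, which activates arachidonic acid for membranes, at 0.59 (SE 0.21) with 4 of 5 high arrays above all low arrays. HADH, an enzyme of the oxidation cycle, differed by -0.28 (SE 0.15), and CPT2, the inner carnitine enzyme, by -0.11 (SE 0.13).

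Sterol and isoprenoid genes had a median of 0.20 and were higher in 14 of 16 cases, where 47.6% of all genes were, and 2 had an unadjusted p under 0.05 (2.37% of all genes were higher at that level). FDPS, which makes farnesyl diphosphate in the mevalonate pathway, measured 8.01, 7.73, 8.30, 8.01 and 8.15 in the low arrays and 9.11, 8.67, 8.84, 8.53 and 8.37 in the high arrays. Every high array lay above every low array, and the difference was 0.66 (SE 0.16), or 1.58-fold. ACAT2, an acetoacetyl-CoA thiolase at the start of the pathway, measured 8.06, 7.86, 8.37, 7.86 and 7.82 against 8.60, 8.38, 8.26, 8.52 and 8.20. Low replicate 3 was the only low array inside the high range, and the difference was 0.40 (SE 0.13).

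Low replicate 3 was also the brightest of all 10 arrays for MSMO1, a sterol demethylase step, at 8.81 beside 7.18 to 7.56 in the other low arrays. MSMO1 differed by 0.64 (SE 0.31), while its dim other probe sets did not differ (0.05 and 0.01). NSDHL, a later demethylation enzyme, differed by 0.31 (SE 0.15), with 4 of 5 high arrays above all low arrays, and its second probe set, about as bright, by -0.05 (SE 0.15). INSIG1, the sensor that holds back SREBP, differed by 0.43 (SE 0.34) and SQLE, squalene epoxidase, by 0.38 (SE 0.29). SREBF2, the master factor of the pathway, differed by 0.13 (SE 0.16) and HMGCS1, its early synthase, by 0.04 (SE 0.28). The list median was 0.21 (14 of 16 higher) and 0.22 (13 of 16 higher) within the higher and lower spike-in classes. With the erythroid and neutrophil list means in the model it was 0.11, with 13 of 16 higher.

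Among 21 genes of fatty acid synthesis and storage, 12 were higher (median 0.10), and PNPLA2 was the 1 with an unadjusted p under 0.05 (4.79% of all genes). FASN, the fatty acid synthase, differed by 0.38 (SE 0.19), FADS1, a desaturase of long fatty acids, by 0.35 (SE 0.27) and SCD, which makes oleate, by 0.24 (SE 0.23). Dimmer other probe sets of FASN differed by -0.05, 0.15 and -0.11 (SE 0.16, 0.16 and 0.11).

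**Figure D4:**
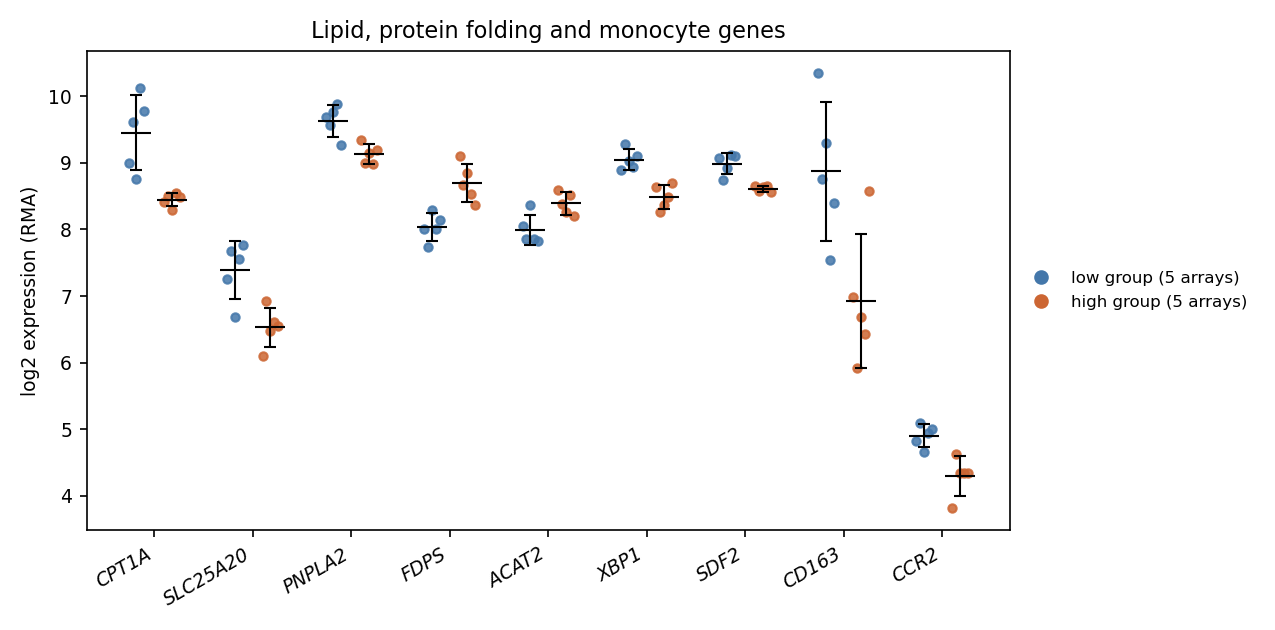
Log2 expression (y axis) of 9 genes of lipid handling, protein folding and monocytes (x axis) in the 5 low (blue) and 5 high (orange) arrays, with bars for the group mean and SD. CPT1A, FDPS, XBP1, SDF2 and CCR2 show no overlap; CPT1A averaged 9.45 in the low and 8.45 in the high group.

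XBP1 had the clearest separation among genes of the secretory pathway. XBP1 is the transcription factor that expands the endoplasmic reticulum in the unfolded protein response and in plasma cells. It measured 8.90, 9.28, 9.02, 8.94 and 9.11 in the low arrays and 8.64, 8.26, 8.36, 8.49 and 8.70 in the high arrays. No arrays overlapped, and the difference was -0.56 (SE 0.12), with -0.45 and -0.71 within the higher and lower spike-in classes. SDF2, a resident protein of the endoplasmic reticulum, measured 9.07, 8.74, 8.92, 9.11 and 9.10 against 8.65, 8.58, 8.65, 8.65 and 8.56. It also did not overlap, with a difference of -0.37 (SE 0.10).

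Of 20 measured genes for folding proteins in this compartment 15 were lower and 5 higher, with a median of -0.13, and XBP1 and SDF2 were the 2 with an unadjusted p under 0.05, where 2.42% of all genes were lower at that level. The chaperone CALR differed by -0.20 (SE 0.13) and MANF, a secreted stress factor, by -0.24 (SE 0.18). HSPA5, the main chaperone there, differed by -0.01 (SE 0.18), and DNAJB9, a known target of XBP1, by 0.28 (SE 0.23). JCHAIN, a plasma cell gene, differed by -0.09 (SE 0.15). The list median depended on low replicate 1, without which it was -0.05, on high replicate 2 (-0.06 without it) and on high replicate 1 (-0.09 without it). STX18, a fusion protein of endoplasmic reticulum membranes, also measured lower in every high array, at 6.28 ± 0.17 and 5.90 ± 0.06 (SD, n = 5 each).

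Of 15 measured DNA repair genes 2 were higher without overlap, where 0.37% of all genes were. APEX1, the endonuclease that cuts DNA at sites that have lost a base, measured 9.24, 9.14, 9.26, 9.03 and 9.07 in the low arrays and 9.80, 9.73, 9.51, 9.34 and 9.80 in the high arrays, a difference of 0.49 (SE 0.12). MGMT, which takes alkyl groups off guanine, gave 7.65, 7.68, 7.53, 7.61 and 7.60 against 8.45, 7.88, 8.45, 8.17 and 7.86, a difference of 0.55 (SE 0.14). For MGMT the low arrays were nearly equal (SD 0.06) and the high arrays were not (SD 0.29). Of the repair genes measured 8 were higher, with a median of 0.04, so the list as a whole did not lean. XRCC5, a subunit of the Ku protein, differed by 0.55 (SE 0.26), and ATM, the kinase that signals double-strand breaks, by -0.25 (SE 0.13).

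The smallest unadjusted p of all genes belonged to CAMK2N1, an inhibitor of the calcium-dependent kinase CaMKII. It measured 5.91, 5.85, 6.14, 6.03 and 6.45 in the low arrays and 7.45, 6.89, 7.23, 6.78 and 6.80 in the high arrays. Each high array stood at least 0.331 above the brightest low array. The difference was 0.95 (SE 0.16), or 1.94-fold, and lay between 0.85 and 1.05 when each array was left out. RASSF4, of the Ras association family, led the opposite direction with 6.02, 6.62, 7.09, 6.25 and 6.38 in the low arrays and 4.68, 5.12, 4.83, 5.30 and 5.90 in the high arrays. High replicate 5 came nearest to the low group. The difference was -1.31 (SE 0.25), a level 2.48-fold higher in the low group, and lay between -1.49 and -1.15 when each array was left out.

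Other genes with a probe set above the median level whose high arrays all lay above the low arrays came from many cell functions. UXS1, which makes UDP-xylose, differed by 0.69 (SE 0.18), UBE2W, a ubiquitin-conjugating enzyme, by 0.69 (SE 0.16), HDDC2 by 0.47 (SE 0.13) and DDT, a relative of the cytokine MIF, by 0.46 (SE 0.13). A dim second probe set of UBE2W differed by -0.10 (SE 0.14). For HDAC6, a deacetylase of tubulin, TMX4, a thioredoxin-like membrane protein, and COMMD7, the probe set without overlap was not the brightest of the gene. That of HDAC6 differed by 0.65 (SE 0.18), while the brightest differed by -0.17 (SE 0.12) and the other five by 0.12 to 0.56, all with overlap. COMMD7 differed by 0.57 (SE 0.13), and by 0.35 (SE 0.13) with overlap on its brightest probe set. TMX4 differed by 0.64 (SE 0.18), and by 0.63 (SE 0.26) with overlap on its brightest. On the lower side, FKBP15, of the FK506-binding family, differed by -0.71 (SE 0.17) and MED6, a Mediator subunit, by -0.57 (SE 0.16). PPM1D, a phosphatase that shuts off the p53 response, differed by -0.50 (SE 0.19), SLC1A5, a glutamine transporter, by -0.37 (SE 0.13) and ATRAID by -0.34 (SE 0.12). COPS7A, of the COP9 signalosome, differed by -0.27 (SE 0.12) and SLC52A2, a riboflavin transporter, by -0.22 (SE 0.10). Several of these genes only just escaped overlap. The nearest arrays of the groups lay 0.001 apart for HDDC2 and PPM1D, 0.005 for MED6 and 0.007 for TMX4. They lay 0.014 apart for HDAC6 and 0.025 for DDT. PTGS1, FDPS, APEX1, MGMT and CAMK2N1 complete the 12 higher genes of this rule, and RASSF4, XBP1, CPT1A, SDF2 and STX18 the 12 lower ones.

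Monocyte genes contained the widest difference among the named genes other than EIF1AY. CD163, the scavenger receptor for haemoglobin on monocytes and macrophages, measured 10.36, 8.75, 9.30, 7.54 and 8.40 in the low arrays and 6.99, 5.92, 6.68, 6.43 and 8.58 in the high arrays. High replicate 5 lay well within the low range, and the other high arrays lay below every low array. The difference was -1.95 (SE 0.55), a level 3.87-fold higher in the low group, and a dim second probe set differed by -0.42 (SE 0.30). CCR2, the receptor by which monocytes leave the marrow, gave 4.82, 5.10, 4.65, 4.94 and 5.0 against 3.81, 4.63, 4.34, 4.35 and 4.34. CCR2 did not overlap, but it was dim on this array, and the gap between the groups was 0.02. Its difference was -0.61 (SE 0.15).

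The monocyte list as a whole was 10 of 15 lower, with a median of -0.20, and CD163 and CCR2 were the 2 with an unadjusted p under 0.05, where 2.42% of all genes were lower at that level. CD14, the co-receptor for bacterial lipopolysaccharide that defines classical monocytes, differed by -0.09 (SE 0.45). FCGR1A, an Fc receptor, differed by -0.26 (SE 0.14) and LGALS3, galectin-3, by 0.49 (SE 0.25). The list median was -0.33 (3 of 15 higher) within the higher spike-in class but 0.15 (8 of 15 higher) within the lower. Without low replicate 1, the low array with the highest monocyte mean (9.11), it was -0.09, and without high replicate 4 it was -0.11.

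Other white cell lists had mixed members. Of 18 T cell genes 7 were higher (median -0.10), and LAT and CD2 had an unadjusted p under 0.05 (4.79% of all genes did). LAT, an adaptor of the T cell receptor, differed by 0.74 (SE 0.30) and IL7R, the interleukin-7 receptor, by 0.66 (SE 0.32). CD2, an adhesion receptor, differed by -0.61 (SE 0.27), and CD27, a costimulatory receptor, by -0.44 (SE 0.24). CD3E, a chain of the T cell receptor complex, differed by -0.21 (SE 0.24). Cytotoxic and NK cell genes were lower in 8 of 10 cases (median -0.10, none at an unadjusted p under 0.05), with GZMH, a granzyme, at -0.70 (SE 0.46) and KLRK1, an activating receptor, at -0.44 (SE 0.46). FASLG, the death ligand, differed by -0.26 (SE 0.21) and GNLY, granulysin, by 0.32 (SE 0.39). The median of the cytotoxic and NK cell list was -0.30 (3 of 10 higher) within the higher spike-in class and 0.03 (5 of 10 higher) within the lower.

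B cell genes were split 3 and 3, with CD40 at 0.37 (SE 0.29), CD79B of the B cell receptor at 0.34 (SE 0.27) and the kinase BTK at 0.19 (SE 0.18). Neutrophil genes were lower in 8 of 11 cases (median -0.29), with none at an unadjusted p under 0.05. ELANE, neutrophil elastase, differed by -0.59 (SE 0.37), S100A8, a calcium-binding alarm protein, by -0.65 (SE 0.68), PGLYRP1 by -0.45 (SE 0.40) and NCF1, of the oxidase complex, by 0.32 (SE 0.30). S100A8 shows the spread: its low arrays ran from 6.77 to 10.86 and its high arrays from 7.18 to 9.35.

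Erythroid genes were lower in 7 of 12 cases (median -0.03), and KLF1 and EPOR were the 2 with an unadjusted p under 0.05 (2.42% of all genes were lower at that level). KLF1, the factor of red cell genes, measured 5.91, 6.68, 5.58, 7.21 and 6.01 against 5.51, 5.74, 5.49, 5.66 and 5.17, a difference of -0.76 (SE 0.27). EPOR, the erythropoietin receptor, differed by -0.40 (SE 0.17). HBB, beta globin, differed by 0.01 (SE 0.31), ALAS2, the first enzyme of haem synthesis in red cells, by -0.04 (SE 0.89), SLC25A37, an iron carrier of mitochondria, by -0.35 (SE 0.24) and TMOD1, a red cell skeleton protein, by 0.74 (SE 0.48). The globin and ALAS2 levels thus did not separate the groups.

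Inflammatory cytokines and chemokines were higher in 17 of 22 cases, with a median of 0.24, and 1 had an unadjusted p under 0.05 (4.79% of all genes did). That gene was CXCL8, the chemokine that draws neutrophils, at 12.63, 11.41, 11.38, 11.35 and 12.45 in the low arrays and 12.98, 13.36, 12.85, 12.28 and 12.47 in the high arrays. Low replicates 1 and 5 lay inside the high range and the other three low arrays below it. The difference was 0.94 (SE 0.30). IL1B, interleukin-1 beta, differed by 0.99 (SE 0.55) and NFKBIA, the inhibitor of NF-kappa-B, by 0.40 (SE 0.25). IFNG, interferon gamma, which T and NK cells make, went the other way, at 8.11, 7.87, 5.96, 9.28 and 8.21 against 6.58, 8.21, 5.11, 7.25 and 5.11, a difference of -1.43 (SE 0.69).

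Immediate early and stress genes, which cells switch on within minutes of a stimulus, were higher in 14 of 21 cases (median 0.23), none at an unadjusted p under 0.05. MYC differed by 0.23 (SE 0.12), GADD45B, a stress gene, by 0.90 (SE 0.52), BTG1, which restrains growth, by 0.18 (SE 0.13) and IER2 by -0.37 (SE 0.20). The list median was 0.56 (15 of 21 higher) within the higher spike-in class and -0.15 (9 of 21 higher) within the lower.

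The lists of antigen presentation and of the basic machinery of the cell had small median differences, though single members differed more. Class II genes were higher in 10 of 14 cases (median 0.13). CD74, the invariant chain, at 0.58 (SE 0.26), was the 1 with an unadjusted p under 0.05 (4.79% of all genes). CTSH differed by 0.29 (SE 0.24), SLA-DQA1 by 0.16 (SE 0.15) and CTSS, the protease that trims CD74, by -0.20 (SE 0.17). Class I genes were higher in 10 of 14 cases (median 0.07), with the proteasome activators PSME1 and PSME2 at 0.23 (SE 0.13) and 0.20 (SE 0.15) and PDIA3 at 0.07 (SE 0.12). The class I median was -0.05 (6 of 14 higher) within the higher spike-in class and 0.19 (13 of 14 higher) within the lower. Ribosomal protein genes were higher in 46 of 58 cases by a median of only 0.04, led by RPL10A (0.21, SE 0.10), RPL13 (0.15, SE 0.11), RPL30 (0.34, SE 0.25) and RPL8 (0.14, SE 0.10).

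Glycolysis genes were higher in 13 of 17 cases (median 0.13), with LDHB at 0.21 (SE 0.13), PKM at 0.16 (SE 0.11), ENO3 at 0.24 (SE 0.19) and HK1 at 0.17 (SE 0.16). Proteasome genes were lower in 18 of 28 cases (median -0.09), with PSMD4 at -0.31 (SE 0.16), PSMB5 at 0.23 (SE 0.12), PSMB1 at -0.20 (SE 0.13) and PSMA5 at -0.31 (SE 0.23). Respiratory chain genes were higher in 16 of 36 cases (median -0.01), with COX7A2 at 0.24 (SE 0.12), ATP5G1 at 0.22 (SE 0.13), NDUFS1 at -0.27 (SE 0.19) and NDUFV2 at -0.22 (SE 0.15). In the cell cycle list 10 of 24 genes were higher (median -0.06), with CDKN3 at -0.51 (SE 0.27), PCNA at 0.32 (SE 0.19), AURKA at -0.24 (SE 0.18) and CDC20 at -0.30 (SE 0.22). A dimmer second probe set of AURKA went the other way, by 0.24 (SE 0.21). The cell cycle median was -0.39 (3 of 24 higher) within the higher spike-in class and 0.08 (13 of 24 higher) within the lower. By the probe set kept per gene, none of the class I, ribosomal, glycolysis, proteasome, respiratory chain or cell cycle genes had an unadjusted p under 0.05. A dim other probe set of NDUFV2 did (-0.30, SE 0.13).

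**Figure D5:**
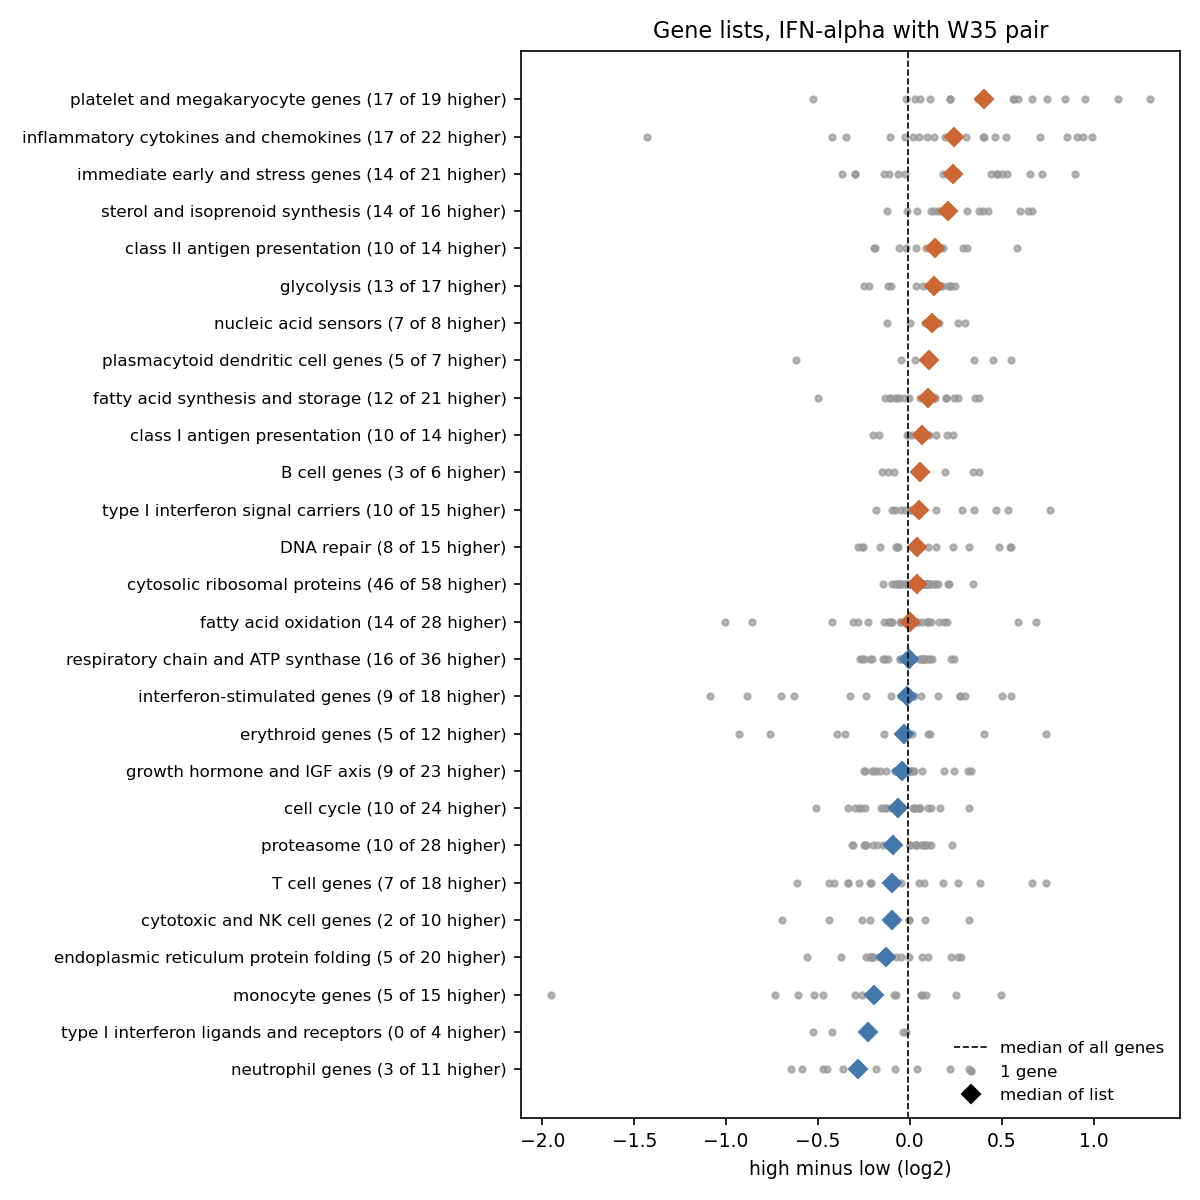
Difference between groups (x axis, high minus low, log2) for each measured gene of 27 gene lists (grey points, 1 row per list) and the list's median (diamond, orange above 0 and blue below), beside the median of all genes (dashed line). Platelet genes have the highest median at 0.40 and neutrophil genes the lowest at -0.29, and the members of most lists fall on both sides of 0.

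The same genes were also measured in the other trait pairs, which share pigs with this one and so give no independent value. The pair of CD4+ with IFN-alpha shared 4 pigs with it, all under the same label, and that of CD8+ with IFN-alpha shared 3, of which 2 kept their label. The platelet list had a median of 0.69 (14 of 19 higher) in the first of these and -0.11 (6 of 19 higher) in the second. Its median was -0.42 in CD4+ with W35, -0.48 in CD8+ with W35 and 0.07 in IL-10 with W35. The sterol list had a median of 0.29 (13 of 16 higher) in CD4+ with IFN-alpha and -0.04 (7 of 16 higher) in CD8+ with IFN-alpha, and of -0.30, -0.15 and -0.08 in the W35 pairs with CD4+, CD8+ and IL-10. Differences in the platelet and sterol lists therefore took either sign in pairs that contain 1 of the same traits. The pairs of IL-10 with CD8+ and with CD4+ contain neither trait. There the platelet median was 0.37 (15 of 19 higher) and -0.15 (7 of 19 higher), and the sterol median 0.00 (8 of 16 higher) and -0.22 (5 of 16 higher). IFNAR1 differed by 0.19 (SE 0.22) in CD4+ with IFN-alpha and by 0.06 (SE 0.29) in CD8+ with IFN-alpha, and IFNAR2 by 0.28 (SE 0.20) and 0.18 (SE 0.29). In the W35 pairs with CD4+, CD8+ and IL-10, IFNAR1 differed by -0.40, -0.39 and 0.64 (SE 0.35, 0.22 and 0.30) and IFNAR2 by -0.28, -0.14 and 0.50 (SE 0.23, 0.19 and 0.28). XBP1 differed by 0.30 (SE 0.38) and -0.02 (SE 0.14) in the IFN-alpha pairs with CD4+ and CD8+, and by -0.51, -0.18 and -0.12 (SE 0.30, 0.24 and 0.15) in the W35 pairs in the same order as above. CPT1A differed by -0.34 (SE 0.33) and 0.42 (SE 0.31), and by -0.29, 0.30 and 0.50 (SE 0.24, 0.38 and 0.26). CAMK2N1 differed by 0.64 (SE 0.30) and -0.15 (SE 0.33), and by -0.08, -0.05 and 0.08 (SE 0.51, 0.44 and 0.27). RASSF4 differed by 0.20 (SE 0.46) and -0.26 (SE 0.47), and by -1.30, -0.77 and 0.49 (SE 0.34, 0.40 and 0.55). CD163 differed by -1.15 (SE 0.81) and -0.70 (SE 0.68), and by -0.85, -0.64 and 0.02 (SE 0.53, 0.76 and 0.74).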

How the data were processed

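Expression in blood of 35-day-old pigs was measured on Affymetrix porcine arrays. Per the submitters' processing notes, the authors used RMA and limma, with versions and settings not given in the sources used here. Each deposited value is the log2 expression of 1 probe set; pairs were not fitted together, since the same pigs recur in them. Of 24123 probe sets, 124 controls were left out and 23999 tested. By the platform annotation 10069 carry 1 gene symbol, 198 several and 13732 none; 6765 genes were kept with the probe set of highest mean. An array gives no counts, so the number of arrays limits the precision.

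For each probe set limma 3.58.1 fitted the group difference over the 10 arrays (eBayes, two-sided, Benjamini-Hochberg over all probe sets, threshold 0.05) in R 4.3.3 with data.table (version 1.17.8). Arrays correlating above 0.99 between pairs were taken as the same pig. The comparison, the 28 gene lists and the tests were chosen with earlier results of these data known, so lists are described by counts and medians and not tested. Genes are named by rule: all measured genes of the interferon ligand and receptor and platelet lists with GHR, IGF1R, IGF1, JAK2 and STAT5B; among genes without overlap between groups, the 12 per direction of smallest p, by any probe set of the gene whose mean is at or above the median probe set; and 4 members with the smallest p of each other list. Values were known when any further list member was picked to be named. Alternatives were quantile normalization, centring, a filter at the median, eBayes trend and robust settings, array weights, the replicate block, covariates, averaging the probe sets of a gene, other thresholds, leaving out each array and, chosen after seeing the data, the spike-in class as a block or taken alone. In data simulated with this pair's spread over 23999 probe sets, 59 of 100 probe sets with a 2-fold and 94 of 100 with a 4-fold change were recovered, with 7 false calls. The simulated probe sets varied independently of each other, and both sizes of change were present together. The recovered shares therefore need not hold for the real arrays. Python 3.11.15 with matplotlib 3.10.9 drew the figures.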

Additional observations from a re-analysis of the deposited data

Results flagged for a closer look

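In 13 of 290 groups of 5 arrays examined (145 named genes in each group) 1 array lay so far from the other four that its gap to the nearest, over the group's range, passed Dixon's critical ratio of 0.71; chance gives about 1 in 20 groups. Among platelet genes, high replicate 3 was highest for GNG11 (12.67 beside 11.74 to 11.92, ratio 0.805) and for RGS10 (11.17 beside 10.45 to 10.62, ratio 0.769). Among genes without overlap, low replicate 5 was highest for PPM1D (8.43 beside 8.23 to 8.25, ratio 0.898) and low replicate 4 for COPS7A (7.61 beside 7.18 to 7.21, ratio 0.913). Low replicate 3 was highest for MSMO1 of sterol synthesis (8.81 beside 7.18 to 7.56, ratio 0.767). High replicate 2 was highest for NFKBIA (13.41 beside 13.28 to 13.31, ratio 0.781) and BTG1 (13.77 beside 13.35 to 13.44, ratio 0.788), and lowest for TMOD1 (10.52 beside 11.20 to 11.48, ratio 0.715) and for the Y-linked EIF1AY (3.12 beside 7.49 to 8.70, ratio 0.784). High replicate 5 was highest for TLR9 (4.86 beside 4.29 to 4.40, ratio 0.8), and low replicate 2 was lowest for the proteasome activator PSME1 (11.59 beside 11.995 to 12.07, ratio 0.852). Among neutrophil genes, low replicate 5 was highest for ELANE (6.81 beside 4.62 to 5.13, ratio 0.767) and high replicate 4 for PGLYRP1 (7.04 beside 5.68 to 6.07, ratio 0.715).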

How the results depend on the processing

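With all 10 arrays no alternative brought a probe set past an adjusted p of 0.05. Of the 23999 probe sets, 98 had an unadjusted p under 0.01 with at least a 1.5-fold difference. Over all 23999 probe sets the unadjusted counts were 529 higher, 489 lower and 153 without overlap. When only probe sets at or above the median were tested, they were 310, 211 and 79. Those counts are out of fewer probe sets, so the drop alone shows no change in the share. That filter also moved the median of the interferon ligand and receptor list to -0.42, since fewer genes were left. The higher count was 302 with the platelet genes PPBP, GP9 and ITGA2B as a covariate, 827 with bioB minus bioC as one and 872 with the spike-in class as a block (chosen after seeing the data), and the lower count was 299 with EIF1AY as a covariate; the cause was not tested. Leaving out 1 array gave 0 to 1 probe sets past the threshold, 413 to 1029 higher, 330 to 1007 lower and 247 to 578 without overlap, the last larger by construction. Without low replicate 1 the lower count was 1007 and the count without overlap 432. Without low replicate 3 the higher count was 1029 and the count without overlap 578, and 1 probe set with no gene symbol passed: 1.56 (SE 0.16, limma adjusted p = 0.0318), against 1.26 (SE 0.29) over all arrays. Counts without overlap were not recomputed where an alternative leaves the values unchanged. The platelet median was 0.05 with the platelet covariate, the covariate genes counted among its 19.

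Arrays with the same replicate number deviated together with correlations of -0.13 to 0.22, so the number was not taken as a pairing; a fit with it as a replicate block gave 0 probe sets past the threshold, 588 higher and 564 lower. The sign changed in 44 results for single genes and was kept in 3260; SELP (0.59), TLN1 (0.40), GNG11 (0.39), TLR8 (0.26) and THBS1 (0.22) were the widest differences among those that turned. JAK2 was -0.002 with quantile normalization, -0.0315 with array weights and -0.0102 with erythroid and neutrophil covariates. With these covariates THBS1 was -0.17, VWF -0.10, SLA-DQA1 -5e-04, TLR8 -0.0289 and TLR9 -0.0143. With the platelet covariate IFNB1 was 0.20, GNG11 -0.0086, TLN1 -0.0482, SELP -0.17 and VWF -0.74. TBXAS1 was 0.0656 with array weights, 0.0848 with bioB minus bioC and 0.0982 with the spike-in class as a block. With EIF1AY, IFNB1 was 0.053 and VWF -0.15. Averaging a gene's probe sets gave VWF 0, SPARC -0.14 and PKM -0.0059. Without 1 array, sign changes lay within -0.15 to 0.22 for JAK2, -0.28 to 0.25 for TBXAS1, -0.10 to 0.11 for IFNB1, -0.31 to 0.45 for VWF, -0.0492 to 0.105 for SPARC, -0.0066 to 0.145 for TLR9, -0.0084 to 0.113 for F2RL2, -0.0236 to 0.112 for PDIA3 and -0.166 to 0.0106 for JCHAIN. Single genes that make up a covariate have no value of their own under it.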

Other observations

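Among these pigs, the low group was the more varied. The median SD of a probe set within the group was 0.267 for the low and 0.223 for the high arrays, and 15100 of 23999 probe sets had the larger SD in the low group. All probe sets were read on the same few pigs, so they are not independent observations of the spread. Among the genes named above, CPT1A (0.56 against 0.10), P2RY12 (0.99 against 0.22) and NFKBIA (0.63 against 0.05) had much wider low groups, while MGMT (0.06 against 0.29) and PPM1D (0.08 against 0.45) had wider high groups.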
